A study of Mus musculus with 16 samples.

Results

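Toll-like receptors are membrane receptors that recognise molecules of microbes, and the panel carried assays for 11 single receptors of the family, for a sequence that Tlr1 and Tlr6 share, and for 3 proteins of related sensing. The members were all assays whose gene name is Tlr followed by a digit, or Cd180, Ly86 or Ripk2. The rule took 16 of the 648 assays and 15 of the 584 gene names, since Tlr1 had 2 assays of its own beside the joint assay Tlr1;Tlr6. No measured value entered the rule, though the members were chosen with earlier results of these data known.

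Colonic mucosa of mice was the tissue, and its RNA was read by quantitative real-time PCR on a TaqMan panel of inflammation genes. The 16 samples formed 4 groups of 4. The DNBS_CEC group had DNBS (dinitrobenzene sulfonic acid, a hapten that causes colitis) by the intrarectal route and an oral treatment labelled CEC, which the labels do not spell out. The DNBS_Nissle group had intrarectal DNBS and oral Nissle, the name of a probiotic Escherichia coli strain. The DNBS group had intrarectal DNBS and oral PBS, a buffer. The Healthy group had PBS by both routes, so all 4 groups were handled by both routes and 3 of them shared DNBS. Strain, sex, age and time of sampling were not given in the labels. The series description speaks of RNA pooled from each mouse, while the titles number the samples (DNBS_CEC 1, 2, 6 and 8, for example). A sample may therefore be a single mouse or several, and the p-values measure only the spread between these samples. Epithelial markers were present in every sample: all 5 on the panel were detected in all 16 samples, with Krt8, a keratin of simple epithelia, among them. A tissue sample mixes epithelium with immune and stromal cells, so that fewer cells of a type and less RNA per cell cannot be told apart in any result below.

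The receptors at the cell surface read bacterial wall and flagellar material: Tlr4 reads lipopolysaccharide, Tlr2 reads lipopeptides together with Tlr1 or Tlr6, and Tlr5 reads flagellin. Those inside the cell read nucleic acids: Tlr3 double-stranded RNA, Tlr7 single-stranded RNA, Tlr9 unmethylated CpG DNA, and Tlr13 bacterial ribosomal RNA. Tlr11 and Tlr12, which act in mice, read profilin of parasites such as Toxoplasma. Cd180 is a receptor homologue on B cells and myeloid cells that sits at the surface with its partner Ly86 (MD-1) and has no signalling domain of the receptor family. Ripk2 is the kinase that carries signals of the intracellular peptidoglycan sensors Nod1 and Nod2. In the colon these sensors stand between a dense flora and the tissue, and receptor signals through Myd88 and NF-kB switch on cytokine genes.

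Cd180 and Tlr13 are the members whose differences between groups came closest to passing a test below, and their promoters are shown for that reason. Both come from RefSeq, build GRCm38.p6, and run from 250 bases before to 50 bases after the start of the gene. The Cd180 sequence is chr13:102693297-102693596 on the plus strand, for the upstream one of its listed starts, and the Tlr13 sequence is chrX:106143025-106143324 on the plus strand. Capitals mark GAGGAA, letters that PU.1, a myeloid and B cell factor, can bind. Other forms of its site were not searched.
Cd180: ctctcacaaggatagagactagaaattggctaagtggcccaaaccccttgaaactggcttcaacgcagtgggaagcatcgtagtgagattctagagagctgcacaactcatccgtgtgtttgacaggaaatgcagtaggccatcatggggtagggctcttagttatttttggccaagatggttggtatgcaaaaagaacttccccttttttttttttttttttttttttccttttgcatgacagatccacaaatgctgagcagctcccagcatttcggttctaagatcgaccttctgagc
Tlr13: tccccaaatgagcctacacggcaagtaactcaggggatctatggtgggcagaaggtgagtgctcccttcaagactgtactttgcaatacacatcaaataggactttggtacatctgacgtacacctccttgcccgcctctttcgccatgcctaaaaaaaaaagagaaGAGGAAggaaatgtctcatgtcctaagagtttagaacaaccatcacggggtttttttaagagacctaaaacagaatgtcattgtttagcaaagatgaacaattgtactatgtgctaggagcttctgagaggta
GAGGAA was searched on both strands. It occurred 1 time in the Tlr13 window, and these letters were not found in the Cd180 window. Of the 14 members that name 1 gene, 11 had a promoter in the table, and 4 of them held GAGGAA. Among all 32851 promoters of that length, 28.3% held it. A match is a description of letters and was not tied to any measurement here.

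The deposited values were cycle thresholds (Ct), the PCR cycle at which an assay crosses its fluorescence threshold, so a lower Ct means more template and 1 cycle is close to 1 unit of log2. A gene's level is written here as −ΔCt, the Ct of the gene subtracted from the mean Ct of 13 reference genes, on a log2 scale where a higher value means more RNA. Assays differ in efficiency, so levels were compared between samples and never between genes. A Ct up to 28 counted as detected. Per sample, between 528 and 564 assays were detected, with a median Ct between 22.1 and 23.5, and the mean Ct of the reference genes lay between 18.7 and 20.1. One reference gene, Ywhaz, ran from Ct 17.9 to 26.8, and leaving it out together with Rplp2 shifts samples against each other by up to 0.72 on the log2 scale. Some values were the exact average of the remaining 3 samples in a group, within a tolerance of 2e-06, and these are called filled here: 194 in the table and 3 among the 256 member values, namely Ripk2 in Healthy 3, and Tlr2 and the Tlr1 assay Mm01208874 in DNBS_Nissle 1. Healthy 3 and DNBS_Nissle 1 held most of the filled values of the table. In the decimals the digit pair 40 was nearly absent, and 20 member values had 4 or fewer decimals, of which Tlr4 held 4, so such a value can be off by less than 1 cycle.

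All 15 members were found in colonic mucosa whether or not DNBS had been given. Every member was detected in all 16 samples, except Tlr11, which had a Ct of 28.2 in DNBS_Nissle 1, and Tlr9, which had a Ct of 28.1 in DNBS_Nissle 4. The mean Ct of the 16 assays ran from 19.7 to 25.5. All 15 members passed the detection filter in all 7 comparisons, so none of the counts below leaves a member out.

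No member rose or fell past the threshold in any comparison. In a limma model over the 16 samples, with Benjamini-Hochberg adjustment over all genes tested, 0 of 15 members passed an adjusted p of 0.05 in each of the 7 comparisons. Among all genes, the same test called 0 of 458 genes in DNBS_CEC samples against Healthy samples, which is 0%, 11 of 457 in DNBS_Nissle samples against Healthy samples, which is 2.41%, and 5 of 457 in DNBS samples against Healthy samples, which is 1.09%. With the 3 DNBS groups averaged against Healthy it called 9 of 453, which is 1.99%. It called 0% of 474 genes in DNBS_CEC against DNBS samples, 0% of 474 in DNBS_Nissle against DNBS samples and 0% of 471 in DNBS_CEC against DNBS_Nissle samples. The members' count of 0 is near these background shares. At an unadjusted limma p under 0.05, the members counted 0 of 15 in DNBS_CEC against Healthy, where all genes stood at 5.46%, 1 of 15 in DNBS_Nissle against Healthy (16.8%), 1 of 15 in DNBS against Healthy (9.85%), and 1 of 15 with all DNBS groups against Healthy (12.6%). The count was 0 of 15 in DNBS_CEC against DNBS (1.69%), 0 of 15 in DNBS_Nissle against DNBS (1.48%), and 1 of 15 in DNBS_CEC against DNBS_Nissle (4.46%). No member had groups that did not overlap in any comparison. Among all genes the share without overlap was 3.28% in DNBS_CEC against Healthy, 13.8% in DNBS_Nissle against Healthy, 8.53% in DNBS against Healthy and 1.77% with all DNBS groups against Healthy. It was 0.633% in DNBS_CEC against DNBS, 1.05% in DNBS_Nissle against DNBS and 1.91% in DNBS_CEC against DNBS_Nissle.

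The members' differences from Healthy went both ways, and their medians were near those of all genes. Single members differed from Healthy by −1.03 to 0.77 in DNBS_CEC, −1.17 to 1.07 in DNBS_Nissle and −0.34 to 1.09 in DNBS samples. In DNBS_CEC against Healthy samples 8 members were higher and 7 lower, with a median difference of 0.06 on the log2 scale against 0.08 for all genes tested. In DNBS_Nissle against Healthy samples 5 were higher and 10 lower, with a median of −0.19 against −0.09. In DNBS against Healthy samples 9 were higher and 6 lower, with a median of 0.14 against 0.12. These 3 comparisons share the Healthy samples. The standard errors of the members ran from 0.30 to 0.76 in them, so the precision differed between receptors. Tlr2 had the smallest standard errors, with a filled Ct in DNBS_Nissle 1. Against Healthy, its 95% interval was −0.70 to 0.58 in DNBS_CEC, −1.01 to 0.27 in DNBS_Nissle and −0.50 to 0.77 in DNBS samples.

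**Figure D1:**
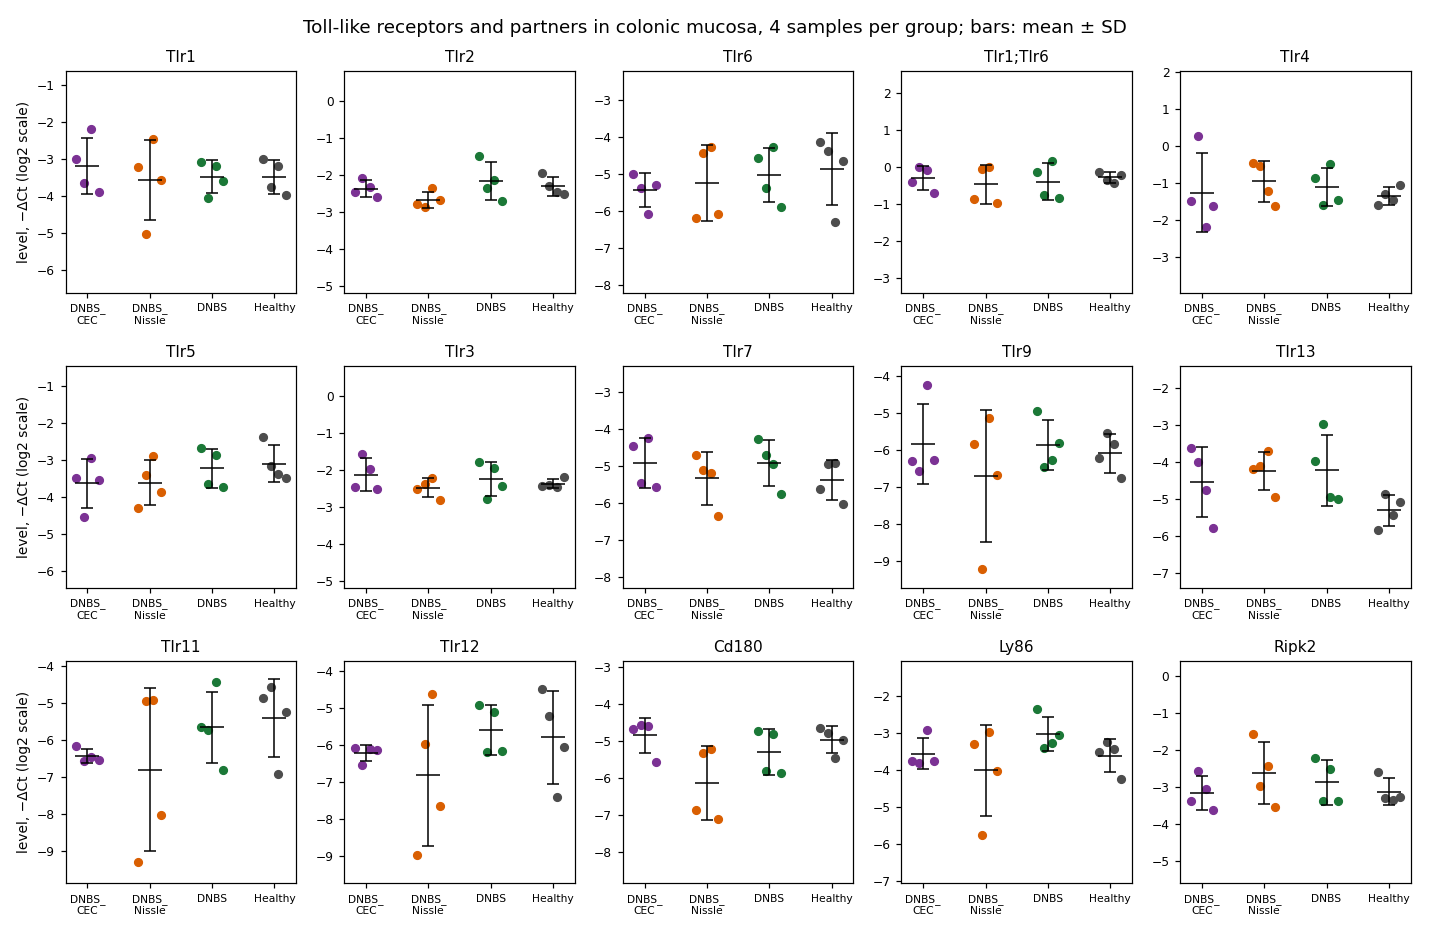
Level of each member (−ΔCt, log2 scale, vertical axes of equal span) in the 4 samples of each group, with the mean and SD as bars; values at a Ct above 28 are drawn as measured. The groups overlap in every panel, Tlr13 is lowest on average in Healthy samples, and Cd180 is lowest on average in DNBS_Nissle samples.

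Tlr4, the lipopolysaccharide receptor, had group means within 0.40 of each other, with the widest spread in DNBS_CEC samples (SD 1.06). Its level was −1.50, 0.27, −2.19 and −1.62 in DNBS_CEC 1, 2, 6 and 8, and −0.45, −0.53, −1.20 and −1.62 in DNBS_Nissle 1, 4, 5 and 7. It was −0.86, −1.58, −0.49 and −1.45 in DNBS 2, 3, 4 and 5, against −1.61, −1.31, −1.45 and −1.05 in Healthy 3, 4, 5 and 6. The highest and the lowest of the 16 values both belonged to DNBS_CEC, and the groups overlapped. The difference from Healthy was 0.09 ± 0.46 (SE, n = 4 each) in DNBS_CEC samples, 0.40 ± 0.46 in DNBS_Nissle samples and 0.26 ± 0.46 in DNBS samples. The adjusted limma p-values were 0.987, 0.777 and 0.964 in that order, and the 95% interval in DNBS samples, −0.72 to 1.24, covers a fold between 0.608 and 2.36. Without DNBS_CEC 2 the DNBS_CEC difference from Healthy was −0.41, and without DNBS_CEC 6 it was 0.41. That difference kept its sign in 17 of 24 alternatives.

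Tlr2, the lipopeptide receptor, varied little. It averaged −2.37 ± 0.23 in DNBS_CEC samples, −2.68 ± 0.23 in DNBS_Nissle samples and −2.17 ± 0.51 in DNBS samples, against −2.31 ± 0.25 in Healthy samples (SD, n = 4 each). All 16 values lay within 1.39 of each other, from −2.88 in DNBS_Nissle 4 to −1.49 in DNBS 2. The value of DNBS_Nissle 1 rests on a filled Ct. Tlr3, the double-stranded RNA receptor, had a range of 1.24, and the joint Tlr1;Tlr6 assay a range of 1.15. These were the members with the narrowest ranges; at the other end Tlr9 spanned 4.98, Tlr11 4.85 and Tlr12 4.51.

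Tlr5, the flagellin receptor, averaged −3.63 ± 0.66 in DNBS_CEC samples, −3.62 ± 0.61 in DNBS_Nissle samples and −3.23 ± 0.54 in DNBS samples, against −3.11 ± 0.50 in Healthy samples (SD, n = 4 each). Its differences from Healthy were −0.53 ± 0.42 (SE) in DNBS_CEC, −0.52 ± 0.42 in DNBS_Nissle and −0.13 ± 0.42 in DNBS samples, with adjusted limma p-values of 0.916, 0.596 and 0.964. Tlr7, the single-stranded RNA receptor, differed from Healthy by 0.46 in DNBS_CEC, 0.05 in DNBS_Nissle and 0.46 in DNBS samples. Neither receptor's groups separated.

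The receptor for bacterial ribosomal RNA, Tlr13, had the highest differences from Healthy samples among the 15 members in all 3 DNBS groups. Its level was −3.62, −4.01, −4.77 and −5.78 in DNBS_CEC 1, 2, 6 and 8, and −4.19, −4.10, −3.71 and −4.94 in DNBS_Nissle 1, 4, 5 and 7. It was −3.98, −2.96, −4.95 and −5.00 in DNBS 2, 3, 4 and 5, against −5.84, −4.88, −5.43 and −5.09 in Healthy 3, 4, 5 and 6. DNBS_CEC 1 and 2, DNBS_Nissle 1, 4 and 5, and DNBS 2 and 3 lay clearly above every Healthy sample, and the remaining samples of these groups lay near or inside the Healthy range. The difference from Healthy was 0.77 ± 0.51 (SE, n = 4 each) in DNBS_CEC samples with an adjusted limma p of 0.916, 1.07 ± 0.51 in DNBS_Nissle samples with an adjusted p of 0.298, and 1.09 ± 0.51 in DNBS samples with an adjusted p of 0.499. The 3 groups averaged stood 0.98 ± 0.42 above Healthy, with an unadjusted limma p of 0.0323 and an adjusted p of 0.318. Without DNBS 3 the difference in DNBS samples was 0.67, and in DNBS_CEC samples it was 0.46 without DNBS_CEC 1 and 1.18 without DNBS_CEC 8. The difference kept its sign in every alternative run against Healthy for each of the 3 groups.

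The macrophage and dendritic cell markers on the panel numbered 9. Of these, 3 were higher than in Healthy samples in DNBS_CEC samples, with a median difference of −0.11, 4 in DNBS_Nissle samples with a median of −0.03, and 7 in DNBS samples with a median of 0.51. The Tlr13 differences were positive in all 3 groups. Of the neutrophil markers, 5 could be tested against Healthy, and all 5 were higher in each of the 3 groups. Their median differences were 2.65 in DNBS_CEC, 3.98 in DNBS_Nissle and 4.32 in DNBS samples. The integrin genes of the macrophage and dendritic cell list did not pass the test. They were singled out after their values were seen as the highest of that list. Itgam, the alpha chain of the integrin Mac-1, differed from Healthy by 1.03 ± 0.78 (SE) in DNBS_CEC, 1.13 ± 0.78 in DNBS_Nissle and 2.07 ± 0.78 in DNBS samples, and its partner Itgb2 by 0.70 ± 0.48, 0.76 ± 0.48 and 1.20 ± 0.48 in that order. Of the 9 markers, 0 passed the test in any comparison and all were detected in all samples. Their summed level ran from −0.53 to 0.41 in DNBS_CEC samples, −0.82 to 0.55 in DNBS_Nissle samples and −0.18 to 0.97 in DNBS samples, against −0.29 to 0.32 in Healthy samples. Their part in the Tlr13 difference was not tested, nor was the part of neutrophils.

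Tlr9, the CpG DNA receptor, had 1 sample far below the rest. Its level was −6.28, −6.57, −4.23 and −6.26 in DNBS_CEC 1, 2, 6 and 8, and −5.82, −9.21, −5.14 and −6.66 in DNBS_Nissle 1, 4, 5 and 7. It was −4.94, −6.47, −6.26 and −5.80 in DNBS 2, 3, 4 and 5, against −6.21, −5.53, −5.82 and −6.75 in Healthy 3, 4, 5 and 6. DNBS_Nissle 4 was lowest, at a Ct past the detection limit, and DNBS_CEC 6 was highest. The fit left out DNBS_Nissle 4 and gave a difference from Healthy of 0.21 ± 0.57 (SE) in DNBS_Nissle samples, with an adjusted limma p of 0.913, while the mean over all 4 samples as measured stood 0.63 below Healthy (−0.63). In DNBS_CEC and DNBS samples the differences were 0.24 ± 0.53 and 0.21 ± 0.53.

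**Figure D2:**
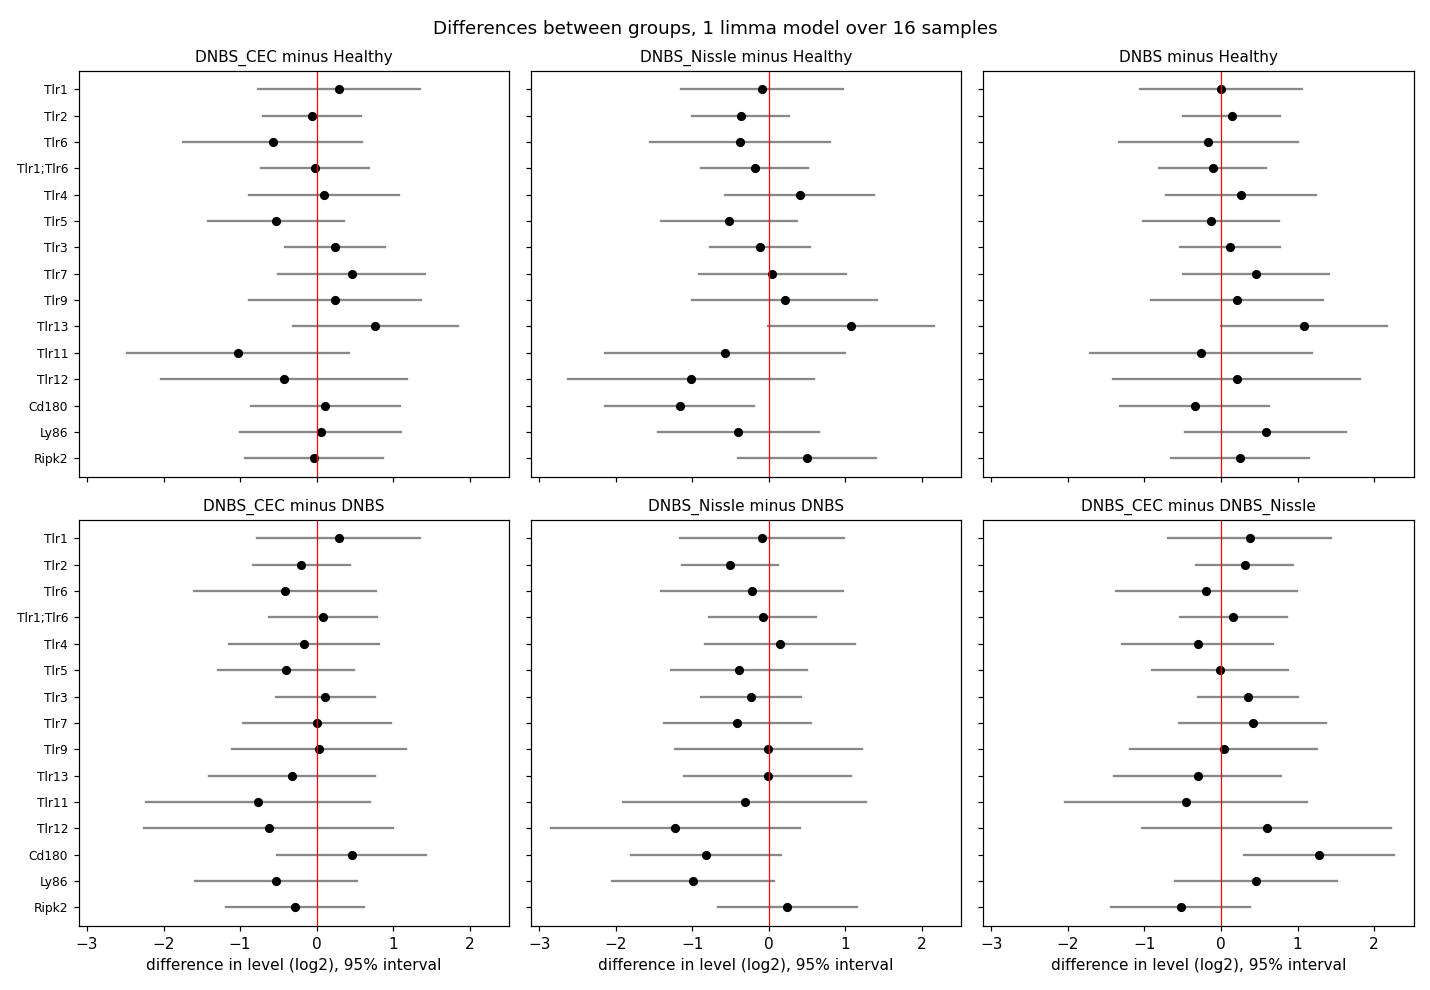
Difference in level (log2 scale) of each member in 6 comparisons, with the estimate as a point and the 95% interval as a line, from 1 limma model over the 16 samples in which Tlr11 of DNBS_Nissle 1 and Tlr9 of DNBS_Nissle 4 are left out. Of the 90 intervals drawn, those of Cd180 in DNBS_Nissle minus Healthy, Cd180 in DNBS_CEC minus DNBS_Nissle and Tlr13 in DNBS minus Healthy do not cross 0, and none of these differences passes the adjusted threshold.

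Cd180, the surface homologue of Tlr4, was lowest in the DNBS_Nissle samples. Its level was −4.70, −4.57, −4.61 and −5.57 in DNBS_CEC 1, 2, 6 and 8, and −6.88, −5.34, −5.23 and −7.13 in DNBS_Nissle 1, 4, 5 and 7. It was −4.74, −5.83, −4.82 and −5.88 in DNBS 2, 3, 4 and 5, against −4.66, −4.78, −5.48 and −4.98 in Healthy 3, 4, 5 and 6. DNBS_Nissle 1 and 7 lay below all other samples of the study, and DNBS_Nissle 4 and 5 lay inside the range of the Healthy samples. The difference from Healthy was −1.17 ± 0.46 (SE, n = 4 each) in DNBS_Nissle samples, a fold of 0.445, with a 95% interval of −2.14 to −0.19, an unadjusted limma p of 0.0217 and an adjusted p of 0.211. It was 0.11 ± 0.46 in DNBS_CEC samples and −0.34 ± 0.46 in DNBS samples, with adjusted limma p-values of 0.987 and 0.943. Set against each other, DNBS_CEC samples stood 1.28 ± 0.46 above DNBS_Nissle samples, with an unadjusted limma p of 0.0134 and an adjusted p of 0.961. Over the alternatives the DNBS_Nissle difference from Healthy ran from −1.47 to −0.63 and its adjusted p from 0.104 to 0.826.

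The only B cell marker of the fixed list on the panel was Cr2, a complement receptor of B cells and follicular dendritic cells. Its level ran from −8.11 to −6.46 in DNBS_CEC samples, from −8.01 to −7.02 in DNBS_Nissle samples and from −8.83 to −6.15 in DNBS samples, against −6.81 to −5.67 in Healthy samples. It differed from Healthy by −1.18 ± 0.55 (SE) in DNBS_CEC, −1.23 ± 0.55 in DNBS_Nissle and −0.97 ± 0.55 in DNBS samples, with adjusted limma p-values of 0.867, 0.275 and 0.609. Cr2 was thus lower on average in all 3 DNBS groups, whereas Cd180 was 0.11 above Healthy in DNBS_CEC samples; the difference between these patterns was not tested, nor was the part of B cells in the Cd180 values. The 6 markers of lymphoid follicles had 0 calls in any comparison.

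Ly86, the partner of Cd180, was also lowest on average in the DNBS_Nissle samples, and highest in the DNBS samples. Its level was −3.75, −3.80, −2.93 and −3.74 in DNBS_CEC 1, 2, 6 and 8, and −3.30, −5.75, −2.97 and −4.03 in DNBS_Nissle 1, 4, 5 and 7. It was −2.36, −3.42, −3.27 and −3.05 in DNBS 2, 3, 4 and 5, against −3.51, −3.25, −3.42 and −4.26 in Healthy 3, 4, 5 and 6. DNBS_Nissle 4 lay far below all others, and the groups overlapped. The difference from Healthy was 0.06 ± 0.50 (SE, n = 4 each) in DNBS_CEC, −0.40 ± 0.50 in DNBS_Nissle and 0.59 ± 0.50 in DNBS samples, with adjusted limma p-values of 0.987, 0.794 and 0.824. Against DNBS samples, DNBS_Nissle samples differed by −0.99 ± 0.50. Without DNBS_Nissle 4 that value was −0.41, and the difference from Healthy turned to 0.18.

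DNBS_Nissle 4 was also the sample in which the 2 Tlr1 assays parted. Tlr1 pairs with Tlr2 on lipopeptides. The assay Mm00446095 crossed its threshold before Mm01208874 in 15 of the 16 samples, by 0.14 cycles in DNBS_CEC 2 up to 2.24 cycles in DNBS 5 (assay differences of −0.14 and −2.24). In DNBS_Nissle 4 it came 1.45 cycles later, with a Ct of 24.6 against 23.2 for the other assay. The gap between assays of 1 gene thus had a range of 3.69 cycles and an SD of 0.89. Averaged over both assays Tlr1 differed from Healthy by 0.29 in DNBS_CEC, −0.09 in DNBS_Nissle and 0.00 in DNBS samples. The 2 assays disagreed in sign in DNBS_Nissle samples, with −0.29 for Mm00446095 and 0.11 for Mm01208874. In DNBS_Nissle 4, Ly86 and Tlr9 had their latest Ct of all 16 samples, 24.6 and 28.1. Tlr4 at 19.4 and Cd180 at 24.2 were among the earlier ones there. This was not particular to the members: Krt8 at 0.71, Nfkb1 at −4.72 and Tollip at −4.25 had their lowest level of the 16 samples in DNBS_Nissle 4. Other genes did not, such as Mapk14 at −0.58, and the cause was not tested.

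**Figure D3:**
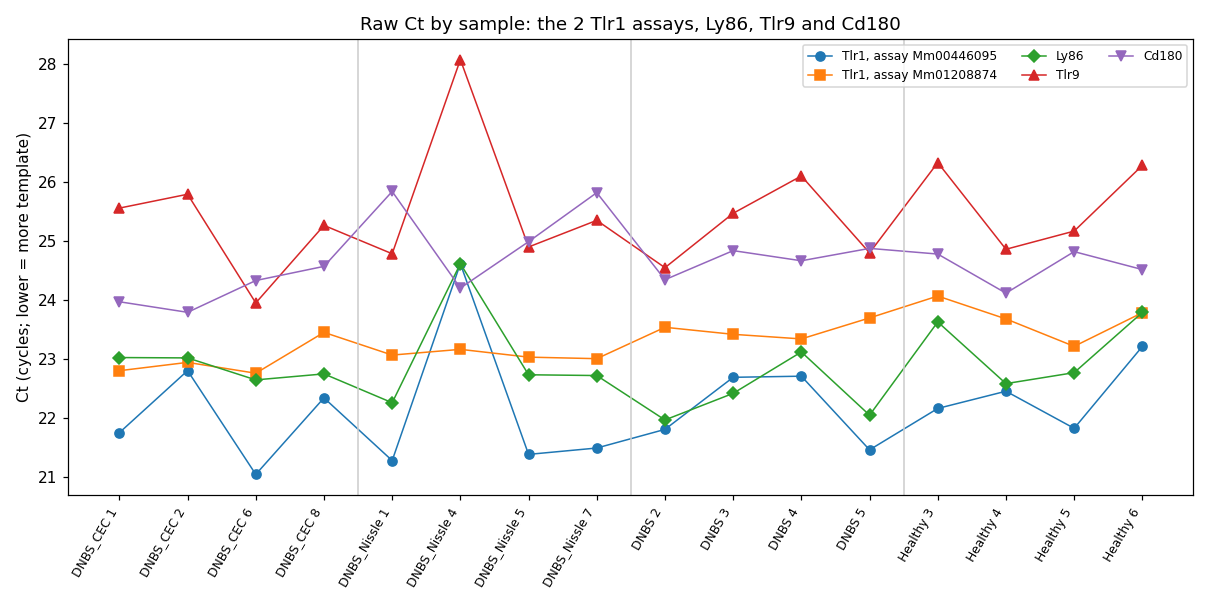
Raw Ct (cycles, lower means more template) in each of the 16 samples for the 2 Tlr1 assays, Ly86, Tlr9 and Cd180. In DNBS_Nissle 4 the assay Mm00446095, Ly86 and Tlr9 reach their latest Ct, 24.6, 24.6 and 28.1, while the other Tlr1 assay stays at 23.2.

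Ripk2, the kinase of Nod1 and Nod2, did not separate the groups. It was −3.39, −2.56, −3.04 and −3.62 in DNBS_CEC 1, 2, 6 and 8, and −1.56, −2.96, −2.43 and −3.55 in DNBS_Nissle 1, 4, 5 and 7. It was −2.20, −3.38, −2.51 and −3.38 in DNBS 2, 3, 4 and 5, against −2.58, −3.29, −3.34 and −3.26 in Healthy 3, 4, 5 and 6. The value of Healthy 3 rests on a filled Ct. DNBS_Nissle 1 was highest and DNBS_CEC 8 lowest. The differences from Healthy were −0.03 ± 0.43 (SE, n = 4 each) in DNBS_CEC, 0.49 ± 0.43 in DNBS_Nissle and 0.25 ± 0.43 in DNBS samples, with adjusted limma p-values of 0.987, 0.617 and 0.964. Without DNBS_Nissle 1 the DNBS_Nissle difference was 0.14. Of the 7 panel genes of NOD and inflammasome sensing, 0 passed the test in any comparison; Nod1 differed from Healthy by 0.06, 0.14 and −0.05, and Nod2 by 0.34, 0.01 and 0.36, in DNBS_CEC, DNBS_Nissle and DNBS samples.

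A ratio of members within a sample needs no reference gene, and Cd180 over Ripk2 was the one of 6 member ratios that separated groups most often. On the log2 scale it was −1.31, −2.02, −1.57 and −1.95 in DNBS_CEC 1, 2, 6 and 8, and −5.31, −2.38, −2.80 and −3.58 in DNBS_Nissle 1, 4, 5 and 7. It was −2.54, −2.46, −2.31 and −2.50 in DNBS 2, 3, 4 and 5, against −2.08, −1.50, −2.13 and −1.72 in Healthy 3, 4, 5 and 6. The 4 DNBS_Nissle values and the 4 DNBS values all lay below the 4 Healthy and the 4 DNBS_CEC values. The Healthy 3 ratio rests on a filled Ripk2 Ct, the average of the other Healthy samples. The tests of this ratio against Healthy count it as a measured sample. The mean difference was −1.66 in DNBS_Nissle against Healthy samples, −0.59 in DNBS against Healthy, 0.74 in DNBS_CEC against DNBS and 1.81 in DNBS_CEC against DNBS_Nissle. Each of these had an unadjusted p of 0.0286 in a two-sided exact permutation test, the smallest that 4 against 4 samples allow, and an adjusted p of 0.206 over 36 ratio tests. Cd180 over Tlr4 also reached this floor, at −1.57 in DNBS_Nissle against Healthy samples, with the same p-values. In all, 5 of the 36 tests had groups that did not overlap. Over the same 6 comparisons, 6.89% of the ratios of all pairs among 412 genes detected in every sample did so, with 17.7% in DNBS_Nissle against Healthy samples, 12.9% in DNBS against Healthy, 4.65% in DNBS_CEC against Healthy and between 1.95% and 2.18% in the comparisons among the 3 DNBS groups. Of the 6 member ratios, 2 did so in DNBS_Nissle against Healthy samples, 1 in DNBS against Healthy, 1 in DNBS_CEC against DNBS and 1 in DNBS_CEC against DNBS_Nissle. No test passed an adjusted p of 0.05; the tests share samples and genes. Without DNBS_Nissle 1 the Cd180 over Ripk2 differences were −1.06 against Healthy and 1.21 for DNBS_CEC against DNBS_Nissle. Its difference from Healthy was also computed under 10 alternatives, among them filled values left out. It ran from −2.04 to −1.06 in DNBS_Nissle samples and from −0.68 to −0.47 in DNBS samples.

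**Figure D4:**
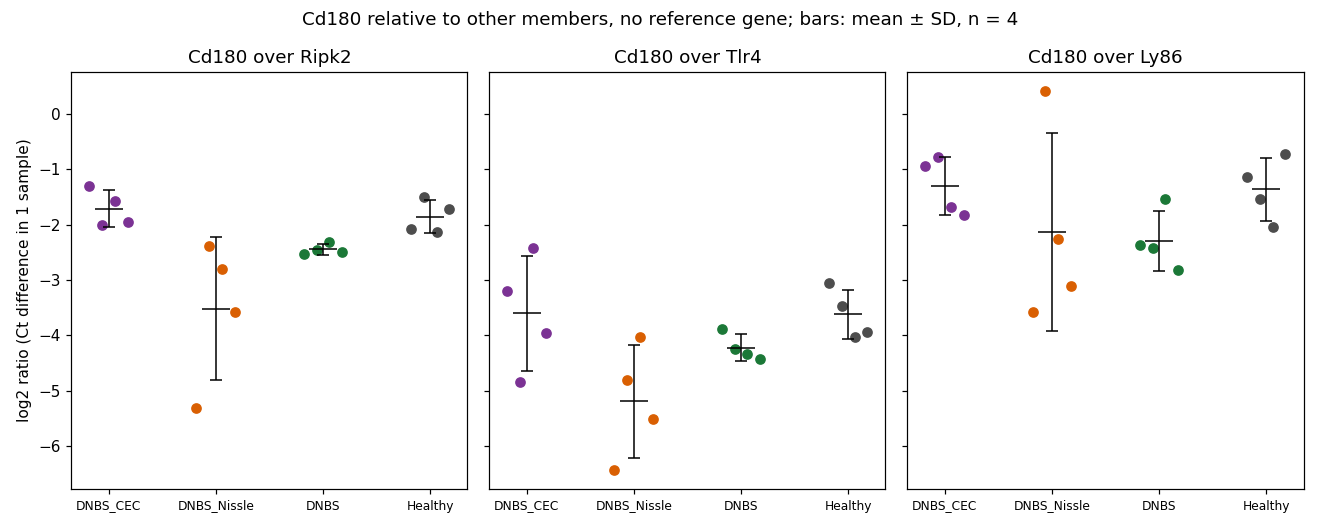
Log2 ratio of Cd180 over Ripk2, Tlr4 and Ly86 within each sample, with the mean and SD of each group as bars (n = 4). The DNBS_CEC and Healthy samples lie above all DNBS_Nissle and DNBS samples for Cd180 over Ripk2, while DNBS_Nissle 4 stands at 0.41 for Cd180 over Ly86, above the rest.

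The members Tlr5, Tlr6, Tlr11, Tlr12 and the joint Tlr1;Tlr6 assay, were measured with single-exon assays, marked s1 in the assay name, whose primers and probe lie in 1 exon and can also amplify genomic DNA. The panel had 53 such assays among 648. When genes were ranked by how closely their profile over the 16 samples matched (the root mean square difference after centring each gene, which no reference gene affects), 8 of the 10 nearest to Tlr6, 9 of the 10 nearest to Tlr11 and 9 of the 10 nearest to Tlr12 were single-exon assays. Among the genes that could be ranked, between 8.76% and 9.00% were. The count was 1 of 10 for Tlr5, 0 of 10 for Tlr1;Tlr6 and at most 3 of 10 for any other member. The measure also brings together genes of like spread, so it does not separate a shared course from a shared size of variation. The nearest to Tlr11 were Il8ra at 0.44, Gpr17 at 0.44 and Tlr12 at 0.55, where the median gene stood at 1.33.

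The 3 assays were also set beside the 7 single-exon assays of type I interferon genes, a set picked after the values had been seen. Their median Ct ran from 24.3 to 25.8 in DNBS_CEC samples, 23.5 to 25.5 in DNBS_Nissle samples and 23.7 to 24.9 in DNBS samples, against 23.4 to 26.1 in Healthy samples. Tlr6 differed from this median by −1.17 to 0.65 cycles, with an SD of 0.48 that was smaller than the SD of its own Ct, 0.66. For Tlr11 the SD was 0.85 against 1.13, and for Tlr12 0.80 against 0.95. This comparison has no bearing on assays that varied little, such as Tlr5, Tlr2 and Tlr3 with Ct SDs of 0.37, 0.31 and 0.37, since the interferon median itself had an SD of 0.87. In Healthy 5 the interferon median was latest at 26.1, where Tlr6 had 25.6, Tlr11 26.3 and Tlr12 26.8. In DNBS_Nissle 1, Tlr11 and Tlr12 had their latest Ct, 28.2 and 27.9, with an interferon median of 24.6. In that sample 3 of the 7 interferon assays lay between 28.9 and 30.7 and the other 4 between 23.8 and 24.6. Whether these 3 receptor assays read RNA or genomic DNA was not tested.

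With that limit, Tlr11 was lower on average in each DNBS group. Its level was −6.14, −6.54, −6.45 and −6.53 in DNBS_CEC 1, 2, 6 and 8, and −9.28, −4.95, −4.92 and −8.03 in DNBS_Nissle 1, 4, 5 and 7. It was −5.65, −5.73, −4.43 and −6.79 in DNBS 2, 3, 4 and 5, against −4.86, −4.57, −6.91 and −5.22 in Healthy 3, 4, 5 and 6. The DNBS_CEC samples lay within 0.40 of each other, with the lowest Healthy sample below them all. The difference from Healthy was −1.03 ± 0.68 (SE) in DNBS_CEC samples, with an adjusted limma p of 0.916, and −0.26 ± 0.68 in DNBS samples. It was −0.57 ± 0.74 in DNBS_Nissle samples with DNBS_Nissle 1 left out as undetected, and −1.40 with that sample as measured. Tlr12 differed from Healthy by −0.42 ± 0.76 in DNBS_CEC, −1.02 ± 0.76 in DNBS_Nissle and 0.20 ± 0.76 in DNBS samples, and Tlr6 by −0.58, −0.38 and −0.16. Without DNBS_Nissle 1 the Tlr12 difference in DNBS_Nissle samples was −0.29.

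**Figure D5:**
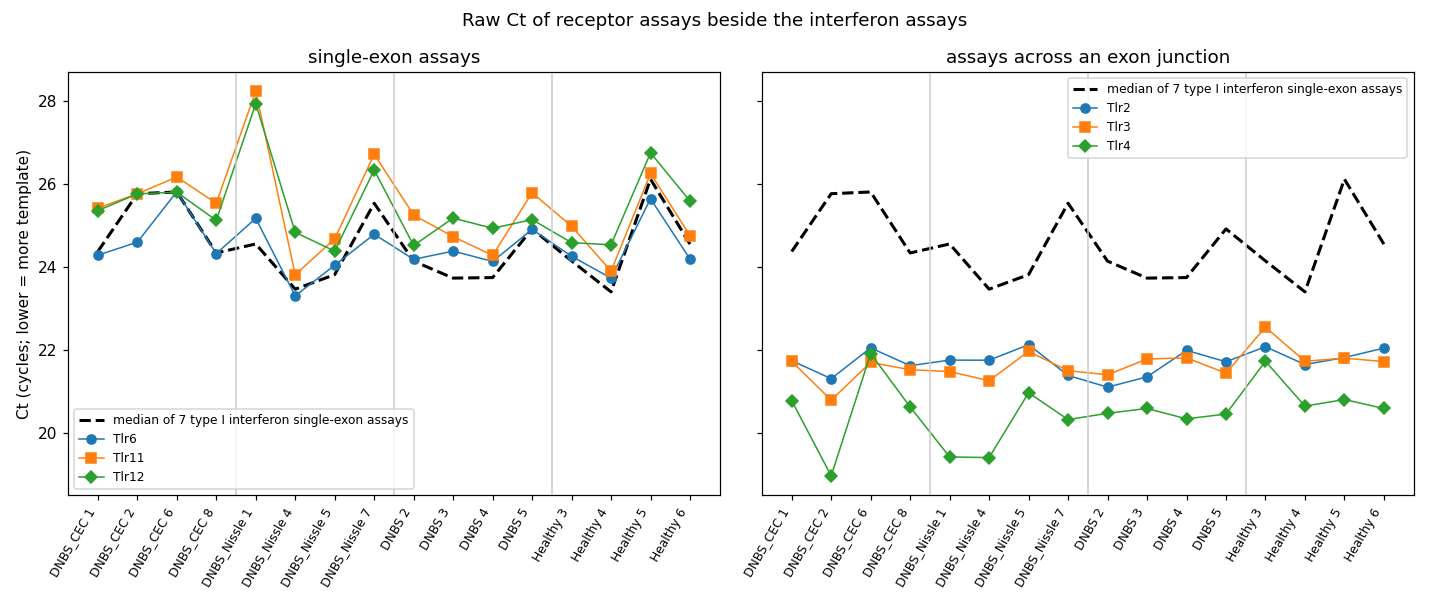
Raw Ct (cycles, lower means more template) in each of the 16 samples, for 3 members with single-exon assays (left) and 3 with assays across an exon junction (right), beside the median of 7 single-exon assays of type I interferon genes (dashed). Tlr6, Tlr11 and Tlr12 lie near the dashed line, apart from Tlr11 and Tlr12 in DNBS_Nissle 1, and Tlr2 and Tlr3 vary less than it does.

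The genes with profiles nearest to the other members are given as a description over 16 samples that share their RNA. Cd180 was nearest to Aif1 at a root mean square difference of 0.46, then Cxcr3 and Flt3l, with the median gene at 0.85. Ly86 was nearest to C1qb at 0.29, a complement gene of macrophages, then Apoe. Ripk2 was nearest to Malt1 at 0.35, then Fam3b and Fas. Tlr4 was nearest to Nlrc4 at 0.36, then Fas and Csf2ra. Tlr13 was nearest to Fcer1g at 0.32, the Fc receptor gamma chain of myeloid cells, then Itgb2 and Pla2g7. Tlr9 was nearest to Ly86 at 0.45, then C1qb and Cdk5, and Tlr7 to Cmklr1 at 0.41. Tlr2 was nearest to Hmgb1 at 0.20 and Tlr3 to Cmtm6 at 0.17, both members with little spread.

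Genes that act upstream and downstream of the receptors were also on the panel. Their lists were chosen with earlier results of these data known. Of the 4 panel genes that encode endogenous ligands of Tlr4, S100a8 and S100a9, the calprotectin subunits of neutrophils, rose in DNBS_Nissle samples by 7.81 ± 1.50 and 7.48 ± 1.41 (SE) over Healthy, both with an adjusted limma p of 0.0120, and in DNBS samples by 6.49 ± 1.50 and 6.23 ± 1.41, both with an adjusted p of 0.0450. In DNBS_CEC samples they stood 4.71 ± 1.49 and 4.32 ± 1.41 above Healthy with an adjusted p of 0.336. The other ligand genes, Hmgb1 and Fn1, did not pass the test. Neutrophil markers, which include both calprotectin genes, had summed levels of −3.12 to 2.90 in DNBS_CEC samples, 2.18 to 3.62 in DNBS_Nissle samples and −0.51 to 5.66 in DNBS samples, against −4.13 to −2.54 in Healthy samples. Among the 18 induced target genes on the panel, 11 could be tested against Healthy. In DNBS_Nissle samples Nos2, the inducible nitric oxide synthase, rose by 3.13 ± 0.72 and Il1b, a cytokine, by 4.76 ± 1.02, and in DNBS samples Nos2 rose by 3.83 ± 0.72. In DNBS_CEC samples 0 targets passed, with Nos2 at 2.31 ± 0.72. The median difference of the tested targets from Healthy was 0.84 in DNBS_CEC, 2.21 in DNBS_Nissle and 1.79 in DNBS samples. For all genes it was 0.08, −0.09 and 0.12. In DNBS_CEC against DNBS and against DNBS_Nissle samples, 14 targets and 4 ligand genes were tested and 0 passed. The share called among all genes was 0% in both. Of the 14 targets, 0 were higher in DNBS_CEC than in DNBS samples, and 0 were higher than in DNBS_Nissle samples. Their median differences were −0.96 and −1.90, against −0.09 and 0.15 for all genes. Of the 4 ligand genes, 0 and 2 were higher in that order. The genes share samples, and this direction was not tested as a set. A difference between DNBS_CEC and the other DNBS groups thus did not pass the test for any of these genes. Calls against Healthy depend on single samples: 11 in DNBS_Nissle became 0 without Healthy 3 and 3 without DNBS_Nissle 1, and 5 in DNBS became 0 without DNBS 2, DNBS 3, Healthy 3, Healthy 4 or Healthy 6.

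For the partner, adaptor and transcription factor genes the test made no calls, which is near the shares over all genes of 0% in DNBS_CEC, 2.41% in DNBS_Nissle and 1.09% in DNBS samples against Healthy. Of the 9 partners and inhibitors of the receptor complex, 0 passed in any comparison; Cd14, the lipopolysaccharide co-receptor, differed from Healthy by 0.44 ± 0.47 (SE) in DNBS_CEC, 0.98 ± 0.47 in DNBS_Nissle and 0.60 ± 0.47 in DNBS samples, and Lbp, which carries lipopolysaccharide to it, by 1.10 ± 0.54, 0.96 ± 0.54 and 1.35 ± 0.54. In DNBS samples Lbp had an unadjusted limma p of 0.0227 and an adjusted p of 0.324. Of the 10 adaptors and kinases, 0 passed; Myd88, the adaptor of nearly all Toll-like receptors, differed by 0.59 ± 0.37, 0.72 ± 0.37 and 0.85 ± 0.37, with adjusted limma p-values of 0.916, 0.338 and 0.402, the last from an unadjusted p of 0.0351. Of the 6 NF-kB and interferon regulatory factor genes, 0 passed; Irf7, the interferon factor downstream of Tlr7 and Tlr9, differed by −0.49 ± 0.35, −1.03 ± 0.35 and −0.93 ± 0.35. Its unadjusted limma p was 0.0100 in DNBS_Nissle and 0.0181 in DNBS samples, with adjusted p-values of 0.183 and 0.324. Among all genes, 16.8% in DNBS_Nissle and 9.85% in DNBS samples had an unadjusted limma p under 0.05 against Healthy. The genes named here are single members of their lists. In the same order of groups, the list medians were 0.12, 0.89 and 0.32 for partners and inhibitors. They were 0.39, 0.15 and 0.28 for adaptors and kinases, and 0.09, 0.02 and 0.21 for the factor genes.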

How the data were processed

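The authors deposited raw Ct values, recorded here as unit other, with no normalization, per the file headers; the assay and the PCR system are stated per the labels' protocols, and the thresholding software is not given in the sources used here. Levels, detection (Ct up to 28 in at least 3 of 4 samples of each compared group), filters and tests were computed here. Values above the limit were left out of the fit, several assays of a gene were averaged, and endogenous controls were not tested. Differences came from limma 3.58.1 in R 4.3.3, 1 model over 16 samples with 4 group means, Benjamini-Hochberg adjustment within each comparison and a threshold of 0.05. The model was also run on simulated data with independent normal errors and planted differences. That run held no filled or undetected values and does not show how the model performs on these data. Ratios of members used an exact permutation test. Members and gene lists were chosen with earlier results of these data known. Tlr4, Cd180, Ly86 and Ripk2 were to be described in full, listed genes were named where tested, and 3 nearest genes were taken per member, of which some are not reported here; values of the other receptors were added under the rule that defines the members. Same-numbered samples of different groups showed no shared deviation in the median pair and were not treated as pairs. A Ct gives no molecule count, and counting error was therefore not estimated.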

Additional observations from a re-analysis of the deposited data

Results flagged for a closer look

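In 5 of the 60 member groups of 4 samples, 1 sample stood apart by Dixon's test, where the gap to the nearest sample divided by the range exceeds the critical value; chance flags about 1 in 20 groups. Cd180 in DNBS_CEC 8 had a ratio of 0.876, at a level of −5.57 with the other 3 between −4.70 and −4.57. Ly86 in DNBS_CEC 6 had 0.938, at −2.93 with the others between −3.80 and −3.74, and Tlr9 in the same sample had 0.867, at −4.23 with the others between −6.57 and −6.26. Tlr12 in DNBS_CEC 2 had 0.919, at −6.54 with the others between −6.12 and −6.08. Ripk2 in Healthy 3 had 0.896, at −2.58 with the others between −3.34 and −3.26; its Ct of 22.7 is a filled value, and the mean Ct of its reference genes, 20.1, is the latest of the 16 samples.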

How the results depend on the processing

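Under 17 other settings and with each of 16 samples left out, none of the 2687 alternatives over 105 member differences passed the threshold, and 41 differences kept 1 sign throughout. In 4 alternatives a member moved by more than 1 SD; for Tlr11 in DNBS_CEC against DNBS_Nissle the replicate block gave −1.81. The count of all genes called was less stable, and the cause was not tested. For all DNBS groups against Healthy (9) it was 5 without filled values, 16 with no detection filter, 14 with quantile normalization, 0 without Healthy 3 and DNBS_Nissle 1 (added after seeing the data), and 0 to 11 with 1 sample left out. For DNBS against Healthy (5) it was 1 with all endogenous controls, with any Ct under 40 or a Ct under 30 as detected, without filled values, without Ywhaz and Rplp2, or with undetected values kept (added after seeing the data); it was 0 with the global mean, with quantile normalization or without Healthy 3 and DNBS_Nissle 1, 2 with no detection filter, 3 with a trended robust prior, and 0 to 6 with 1 sample left out. For DNBS_CEC against Healthy (0) it was 1 with no detection filter and 0 to 1 with 1 sample left out. For DNBS_Nissle against Healthy (11) it was 20 in a model of those groups alone, 0 without Healthy 3 and DNBS_Nissle 1, and 0 to 14 with 1 sample left out.

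Samples with the same replicate number did not deviate together in the median pair. The 10 same-numbered pairs had a median correlation of −0.07, ranging from −0.47 to 0.31, against −0.02 over the other 86 pairs. So few pairs cannot show whether the number marks a pairing. With the number as a replicate block, calls were 0 for all DNBS groups against Healthy, 2 for DNBS and 0 for DNBS_Nissle against Healthy, and no member was called. None of the 360 alternatives of the ratio tests passed an adjusted p of 0.05.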
